A study of Rattus norvegicus with 24 samples.

Results

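The genes described here encode the protein kinases of the hypertrophic signalling cascades and calcineurin. They were chosen by symbol: every gene whose symbol starts with Mapk, Map2k, Map3k, Prkc, Prka, Prkg, Camk, Ppp3, Pik3, Akt and a digit, Rps6k or Gsk3. Of the 4126 named genes on the array, 65 matched, carried by 67 probes. Tests were made on the 46 with values on at least 2 arrays of each right ventricle group, which is 70.8% of the 65 against 68.7% of all named genes. A further 16 had values on too few arrays, and 3 (Camkk2, Mapk10 and Mapk14) had none. The fits that also used the left ventricle held 36 of the 46, and 21 had a value on all 24 arrays.

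The arrays compared RNA from ventricles of rats (Rattus norvegicus) with a reference pool, 1 sample and the pool on each 2-colour array. The title of the series names monocrotaline, a pyrrolizidine compound of plants that causes pulmonary hypertension, against which the right ventricle has to pump. The groups, all sampled at day 14, carry the labels HYP, CHF and CON, and each has 6 right and 2 left ventricle samples. HYP is read as compensated hypertrophy, CHF as decompensated hypertrophy or heart failure, and CON as control. Strain, age, sex, dose, what the controls received, how HYP was told from CHF and the make-up of the pool do not appear in the sources used here. Nothing in the labels says that each sample came from its own animal. The p-values therefore cover the spread between samples, which may be technical.

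Growth signals reach the heart muscle cell through several kinase cascades. Calcium binds calmodulin, which activates both the phosphatase calcineurin, whose target NFAT then enters the nucleus, and the calmodulin-dependent kinases, which release MEF2 from its repressors. Receptors coupled to Gq activate protein kinase C and the mitogen-activated protein kinase tiers, while insulin-like growth factor acts through PI3-kinase and Akt, which inhibits glycogen synthase kinase 3 and raises S6 kinase activity. These proteins are controlled mostly by phosphorylation and calcium, which an RNA measurement does not see.

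Values are scores per array, each array having a mean near 0 and an SD near 1, so differences are in array SDs and are not log2 fold changes. Every array was centred on its median. Whether a higher score means more RNA in the sample than in the pool is likely and not settled. It rests on Acta1 and Ankrd1, genes known to rise in a loaded ventricle, which were 4.35 and 1.56 higher in CHF than in CON right ventricles (limma adjusted p = 0.000157 and 0.112), and 3.31 and 0.39 higher with the signs turned as follows. Arrays CHF 14 and HYP 08 of the right ventricle had a correlation of -0.530 across probes, the lowest of any pair. Each comparison is therefore also given with the sign turned on 5 arrays: CHF 10 and CHF 14 of the right ventricle, and CHF 09, CON 21 and CON 22 of the left. Leaving out CHF 10 and CHF 14 gave Acta1 and Ankrd1 differences of 4.42 and 1.28 (limma adjusted p = 0.00197 and 0.433). Turning them gave limma adjusted p = 0.0849 and 0.766. An array held 2162 to 3658 values, of which 28 to 56 belonged to the 65 genes.

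**Figure D1:**
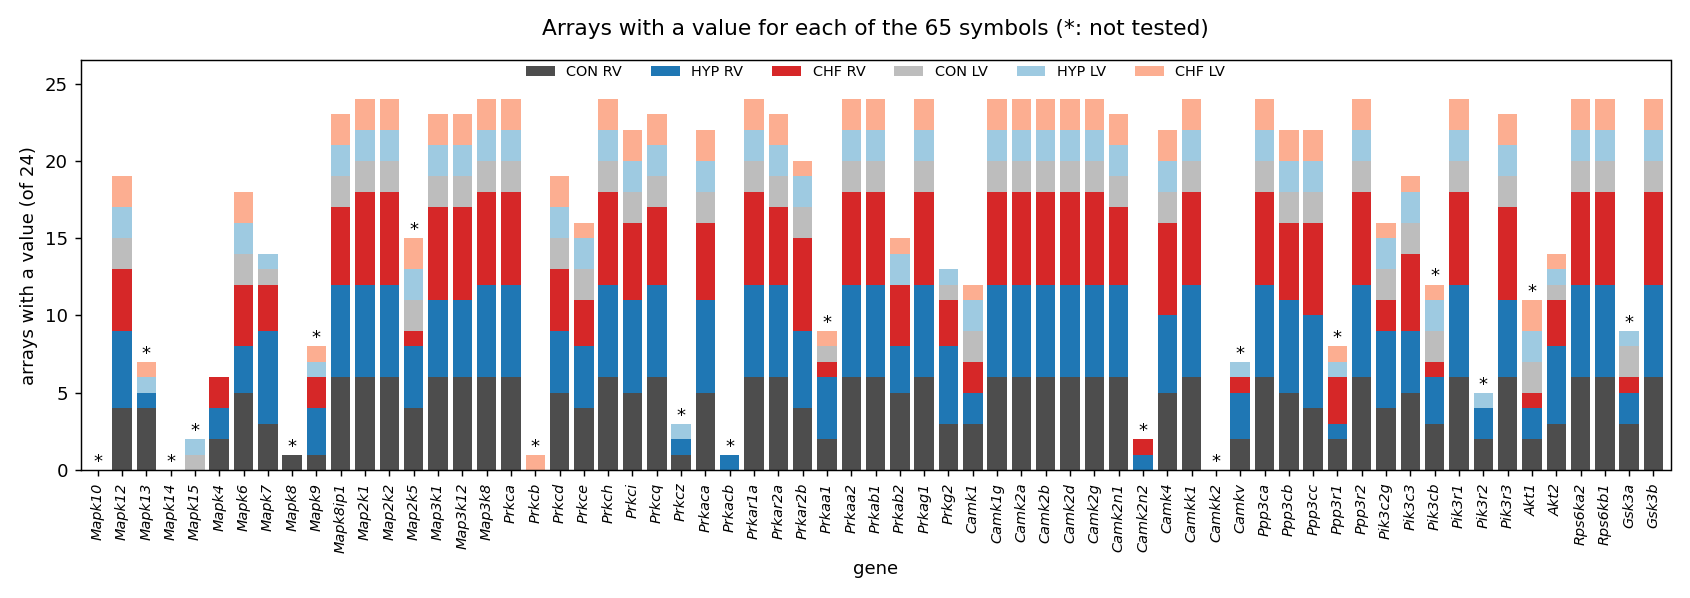
Number of arrays with a value (vertical axis, of 24) for each of the 65 symbols (horizontal axis), stacked by group in the right ventricle (RV) and left ventricle (LV); an asterisk marks the 19 symbols not tested. Camk2a, Camk2b, Camk2d and Camk2g had values on all 24 arrays, while Mapk8, Prkcb and Prkacb had 1 value each.

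The 19 untested symbols include several central members. The stress kinases Mapk8 and Mapk9 (JNK1 and JNK2) had 1 and 8 values, and Mapk14 (p38 alpha) none. Akt1, the growth-promoting Akt isoform, stood at -2.18 and -1.74 on 2 CON right ventricle arrays, at -0.08 and 1.45 on 2 HYP arrays and at 2.21 on 1 CHF array. In the left ventricle Akt1 scores were 2.26 and 2.97 in CON, -0.11 and 0.77 in HYP, and 1.77 and 2.82 in CHF. These single values are as deposited and were not tested. Both CON arrays of the left ventricle and its array CHF 09 are of doubtful sign, as are CHF 10 and CHF 14 of the right. Ppp3r1, the common regulatory subunit of calcineurin, had scores of 1.64, 2.18 and 2.88 on 3 CHF right ventricle arrays, 0.04 on 1 HYP array, and -1.35 and 2.74 on 2 CON arrays. Mapk13 (p38 delta) had a value on 4 CON, 1 HYP and 0 CHF right ventricle arrays. Of the 62 genes with any value, 8 had values on at most 1 CHF and at least 2 CON right ventricle arrays, which is 12.9% against 8.02% of all features. The median number of the 65 genes with a value per right ventricle array was 48 in CON, 47.5 in HYP and 43 in CHF. The remaining untested genes were Mapk15, Map2k5, Prkcb, Prkcz, Prkacb, Prkaa1, Camk2n2, Camkv, Pik3cb, Pik3r2 and Gsk3a.

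In the right ventricle, none of the 46 kinase and calcineurin genes passed between CHF and CON at an adjusted p below 0.05 by limma, where 0.907% of all 3199 features did. With array weights 1 of them, Prkch, did, in a fit whose share of all features is not given here. Between the ventricles array weights raised that share from 18.3% to 43.3%. At an unadjusted p below 0.05 there were 3 without weights (6.52% against a background of 8.5%): Map3k8 and Prkch with higher scores in CHF and Map3k12 with lower. The median difference over the 46 was -0.07 array SDs against -0.10 over all features, and 18 of the 46 (39.1%) lay above 0 against 41.2%. The median absolute difference was 0.24 over the 46 and 0.33 over all features. Of the 24 genes with values on all 12 arrays, 0 had groups that did not overlap, where 1.45% of all such features did. With the sign turned, 0 of 46 passed again and 5 had an unadjusted p below 0.05. The share of all features in the turned fit is not given here, so these 5 cannot be set against a background.

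Between HYP and CON, 0 of 46 passed as well (background 0.281%), and 2 had an unadjusted p below 0.05 (4.35% against 4.1%), Map3k8 and Mapk12. Between CHF and HYP it was 0 of 46 (background 0%) and 2 unadjusted (4.35% against 4.94%), Gsk3b and Prkci. The medians were -0.05 and -0.07, against -0.05 and -0.04 over all features. None of the 25 and 22 genes measured on all 12 arrays separated the groups, against 0.759% and 0.234% of features. The 3 right ventricle comparisons share their groups, so that their values are not independent of each other. Under the turned sign 0 of 46 passed in both, and 4 had an unadjusted p below 0.05 in each, with the share of all features not given here. The spread within a group was close to that of other genes: the residual SD had a median of 0.69 over the 46, from 0.28 for Camkk1 to 1.602 for Akt2, and of 0.66 over all features.

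**Figure D2:**
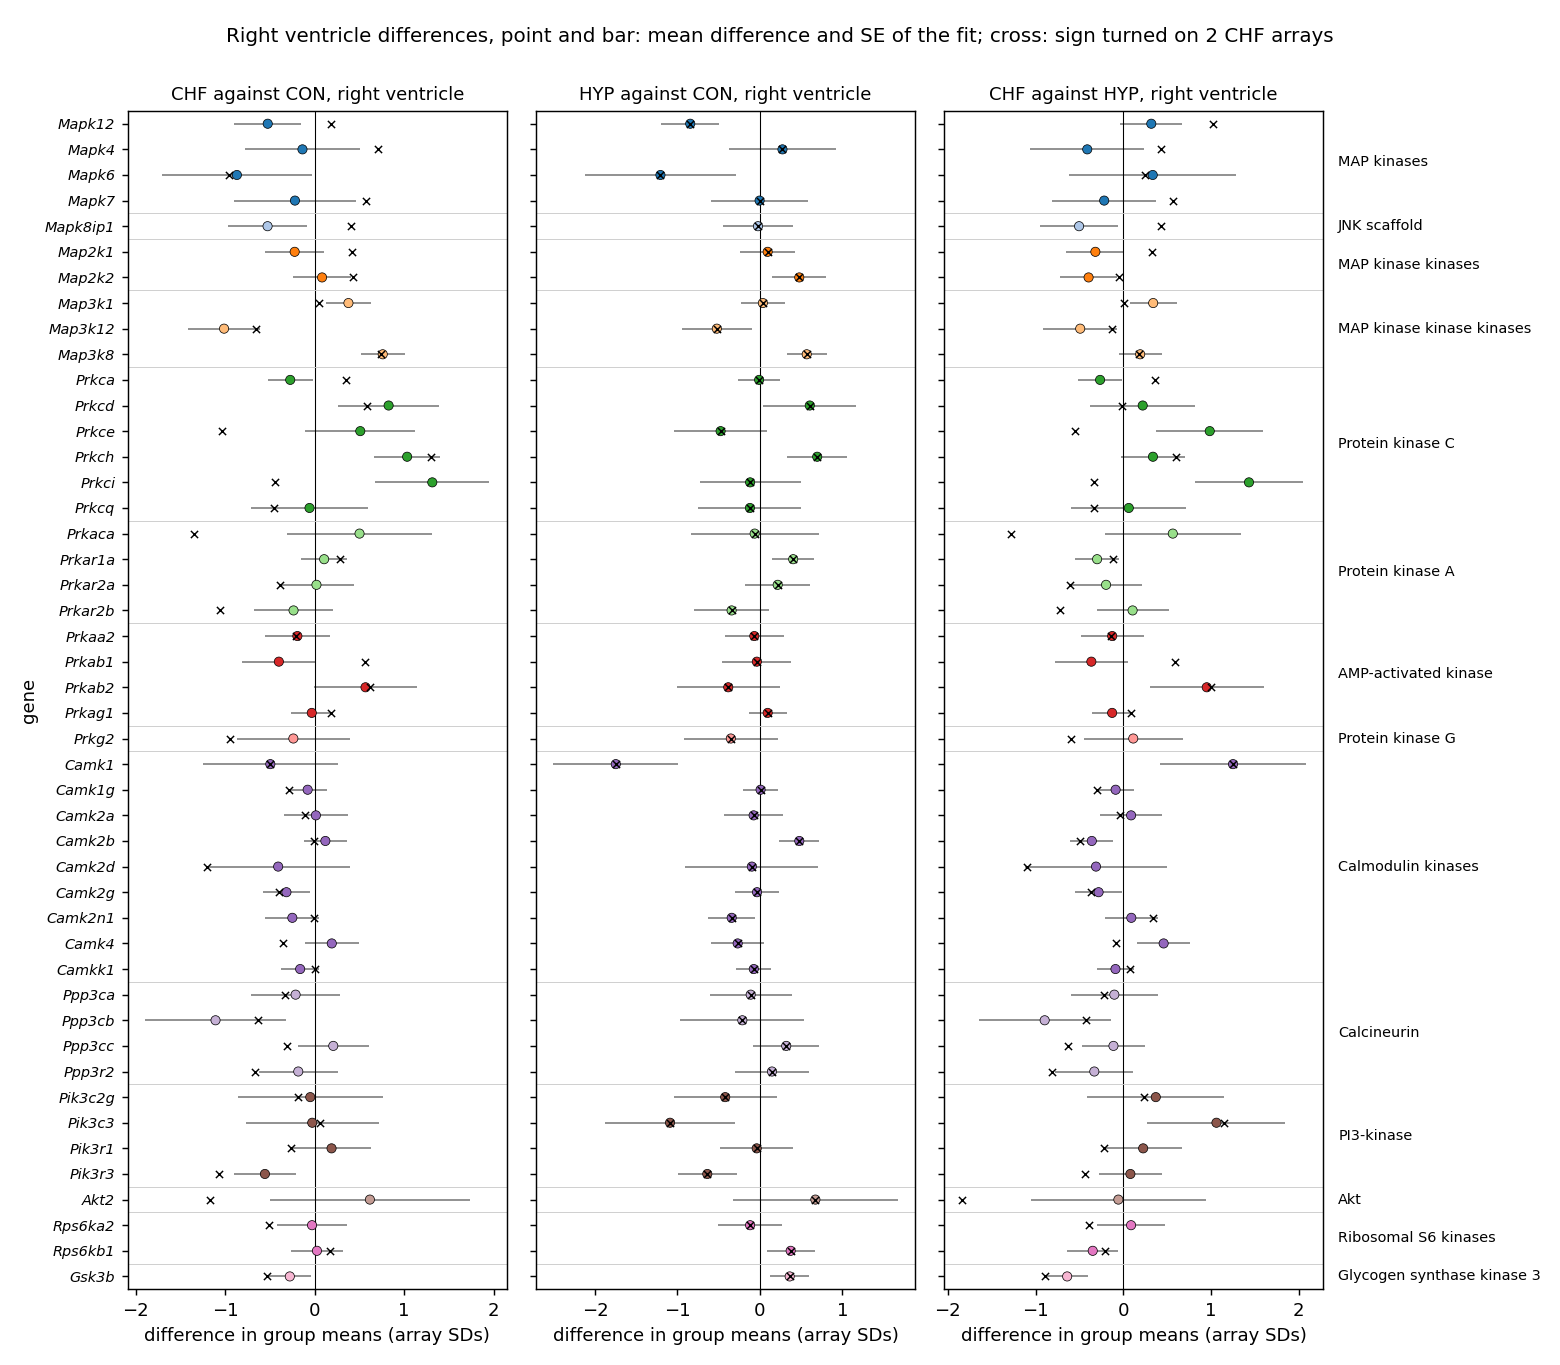
Difference between group means in array SDs (horizontal axis) for the 46 genes (vertical axis), ordered and coloured by role, in the 3 right ventricle comparisons; bars are the standard error of the limma fit, and crosses give the difference after CHF arrays 10 and 14 were turned. Differences run from -1.11 for Ppp3cb to 1.31 for Prkci in CHF against CON, and the cross for Prkci lies on the other side of 0.

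Among the kinases that open a mitogen-activated cascade, Map3k8 (Tpl2, which activates the MEK and ERK branch) had the smallest p in CHF against CON and in HYP against CON. Its scores in CON right ventricles ran from -0.88 through a median of -0.64 to 0.42, in HYP from -0.20 through 0.19 to 0.32, and in CHF from -0.01 through 0.22 to 0.80. CON array 21, at 0.42, lay above the HYP range and inside the CHF range, and CON array 18, at -0.14, lay inside the HYP range, while the other 4 CON arrays lay below both. Map3k8 was 0.76 ± 0.24 (SE) higher in CHF (limma adjusted p = 0.256; 0.74 with the sign turned) and 0.57 ± 0.24 higher in HYP (adjusted p = 0.9997). Map3k12, the dual leucine zipper kinase that feeds the JNK branch, ran from -0.16 through 0.83 to 2.36 in CON and from -0.83 through -0.44 to 0.83 in CHF. The groups overlapped, and the difference of -1.01 ± 0.40 did not pass (limma adjusted p = 0.472; -0.65 turned). In HYP the Map3k12 median was 0.45, between those of the other groups. Map3k1, a kinase of the JNK and ERK branches, differed by 0.38 ± 0.25 between CHF and CON (limma adjusted p = 0.720; 0.04 turned).

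In the next tiers, Map2k1 (MEK1) differed by -0.22 ± 0.33 between CHF and CON and by 0.42 with the sign turned, and Map2k2 (MEK2) by 0.08 ± 0.33, both with limma adjusted p = 0.883 or more. Mapk12 (p38 gamma, the muscle p38) had values from -0.51 to -0.02 on 4 CON arrays, from -2.01 to -0.26 on 5 HYP arrays and from -1.11 to -0.30 on 4 CHF arrays. Its HYP and CHF medians, -1.02 and -0.73, lay below every CON value, and the highest value of each group lay within the CON range. The differences from CON were -0.84 ± 0.35 in HYP (limma adjusted p = 0.9997) and -0.52 ± 0.37 in CHF (adjusted p = 0.728; 0.18 turned). Mapk7 (ERK5), with 3 CON and 3 CHF values, differed by -0.22 ± 0.68. Mapk6 (ERK3) had 5 CON values between -2.36 and 2.25 and 4 CHF values between -2.64 and 0.40. The scaffold Mapk8ip1 (JIP1), which holds JNK with its activators, lay below 0 on all arrays with a value but CON 18 of the right ventricle, where it was 0.20, and differed by -0.53 ± 0.45 between CHF and CON (0.41 turned).

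**Figure D3:**
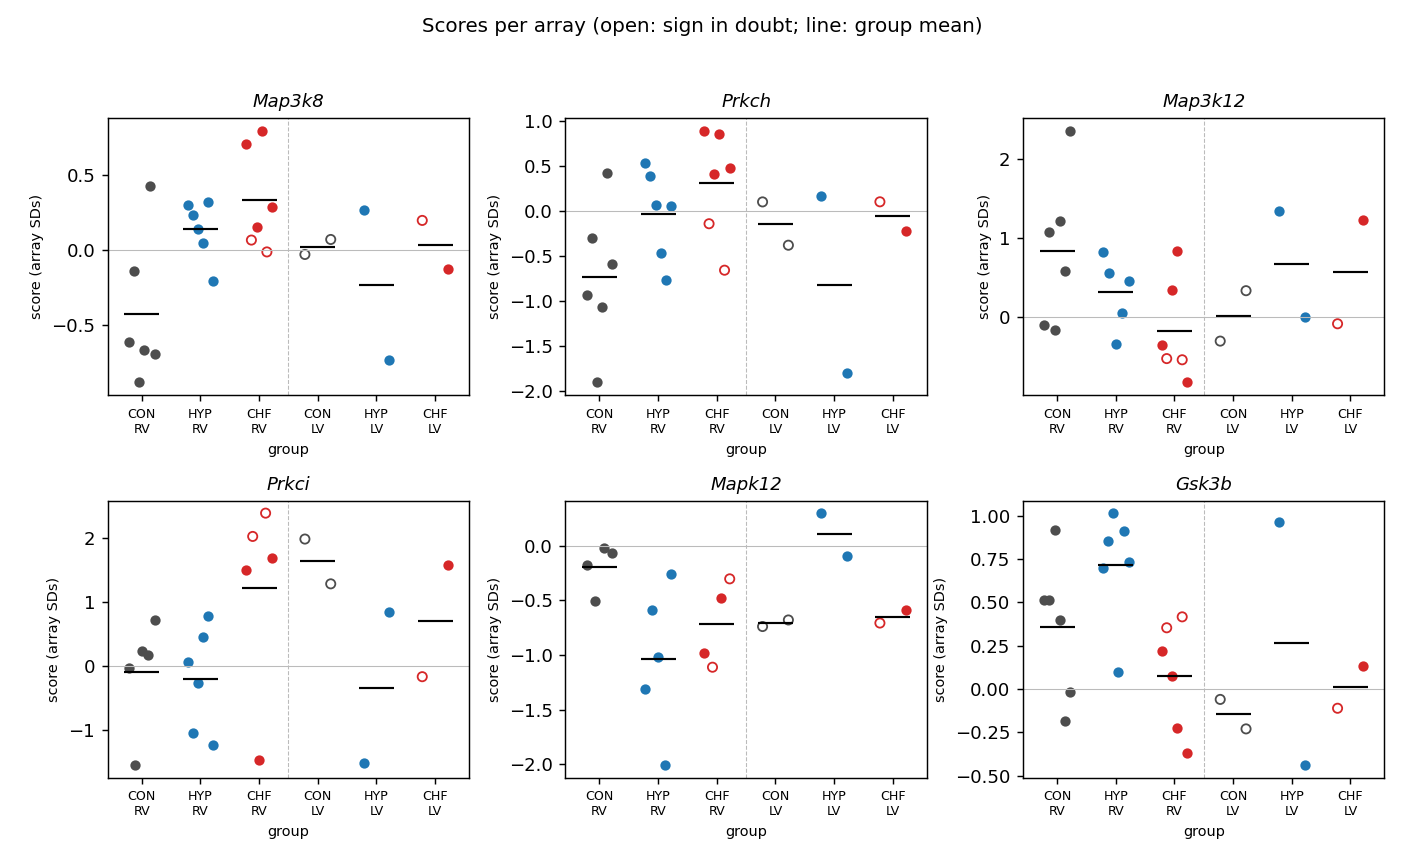
Centred score (vertical axis, array SDs) on every array by group (horizontal axis) for the 6 genes with an unadjusted p below 0.05 in at least 1 right ventricle comparison; lines are group means and open circles arrays whose sign is in doubt. The groups of each gene overlap in the right ventricle, and the highest Prkci values, 2.02 and 2.38, are open circles.

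Of the 46 genes, the protein kinase C isoforms Prkci, Prkch and Prkcd had the 3 highest differences in CHF against CON as deposited (1.31, 1.03 and 0.83; -0.45, 1.30 and 0.59 turned), while Prkca and Prkcq lay below 0. Prkch (PKC eta) ran from -1.90 through -0.76 to 0.42 in CON, from -0.76 through 0.06 to 0.53 in HYP and from -0.66 through 0.44 to 0.89 in CHF. The 6 CHF values overlapped the CON range at both CHF arrays of doubtful sign, which stood at -0.14 and -0.66, and at CHF 11, which stood at 0.41. Prkch was 1.03 ± 0.37 higher in CHF than in CON (limma adjusted p = 0.319; 1.30 turned; 1.39 without CHF arrays 10 and 14, adjusted p = 0.207) and 0.70 ± 0.37 higher in HYP (adjusted p = 0.9997). With array weights, which give arrays that deviate most less say, Prkch passed in CHF against CON (1.33, limma adjusted p = 0.0412). Across 9 alternatives, this one included and the fits leaving out a single array not, the limma adjusted p lay between 0.0412 and 0.485.

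Prkci (PKC iota, an atypical isoform) had 5 values in CON from -1.55 through 0.16 to 0.72, 6 in HYP from -1.23 through -0.11 to 0.77, and 5 in CHF of -1.47, 1.49, 1.68, 2.02 and 2.38. All CHF values but that of array 11 lay above every CON and HYP value. The difference was 1.31 ± 0.64 against CON (limma adjusted p = 0.594) and 1.43 ± 0.61 against HYP (adjusted p = 0.938). The 2.02 and 2.38 come from CHF arrays 10 and 14, and with their sign turned the differences were -0.45 and -0.33. Prkcd (PKC delta) differed by 0.83 ± 0.57 between CHF and CON, Prkce (PKC epsilon) by 0.51 ± 0.61 with 3 and 4 values, and Prkca (PKC alpha, the main conventional isoform of the heart) by -0.27 ± 0.25. Turning the sign put Prkce at -1.03 and Prkca at 0.35. Prkcq (PKC theta, the isoform of skeletal muscle and T cells) differed by -0.06 ± 0.66.

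The subunits of protein kinase A, the effector of cyclic AMP, gave no shared direction: Prkar1a, Prkar2a and the catalytic Prkaca lay 0.11, 0.02 and 0.50 above CON in CHF, and Prkar2b -0.24. Prkaca spanned -0.92 to 2.63 in CHF, the top value on array 14, and stood at -1.34 with the sign turned. Prkar1a was 0.40 ± 0.25 higher in HYP than in CON. Of the AMP-activated kinase, the sensor of cell energy, the catalytic Prkaa2 differed by -0.19 ± 0.36 between CHF and CON and the regulatory Prkab1 by -0.40 ± 0.42 (0.56 turned). Prkab2 had few values and differed by 0.95 ± 0.65 between CHF and HYP (limma adjusted p = 0.951), and Prkag1 by -0.03 ± 0.23 between CHF and CON. Prkg2, a cyclic GMP-dependent kinase, had 3 values in CON and in CHF and differed by -0.24 ± 0.63.

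Calcium-dependent members showed no difference that passed between the right ventricle groups. Ppp3ca, the calcineurin A alpha catalytic subunit, ran from -2.21 through -0.48 to -0.41 in CON, from -1.76 through -1.41 to 0.21 in HYP and from -2.39 through -1.55 to 0.46 in CHF. In HYP and in CHF 4 of 6 values lay below the 4 highest CON values and the other 2 above all of CON, and the mean differences were -0.11 ± 0.50 and -0.21 ± 0.50. Ppp3cb, the A beta subunit, which has been tied to cardiac growth, had CHF values from -1.94 through -0.66 to -0.44 on 5 arrays. In CON it ran from -0.98 through -0.355 to 2.20 and in HYP from -1.65 through -0.90 to 2.62. The highest CON and HYP values were single arrays, CON 19 and HYP 04, the latter joined by HYP 06 at 1.74. Ppp3cb differed by -1.11 ± 0.79 between CHF and CON (limma adjusted p = 0.727; -0.64 turned). Ppp3cc, the testis-enriched catalytic form, and Ppp3r2, a second regulatory subunit, differed by 0.21 ± 0.40 and -0.18 ± 0.44.

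Of the calmodulin kinases, Camk2d, the main CaMKII isoform of the heart, spread more within the groups than between them. It ran from -2.36 through -0.48 to 0.69 in CON, from -2.11 through -1.20 to 0.98 in HYP and from -3.83 through -1.62 to 1.45 in CHF. Its differences from CON were -0.41 ± 0.81 in CHF (-1.20 turned) and -0.10 ± 0.81 in HYP. Of its 2 probes, 1 had a value on only 1 CON and 1 HYP right ventricle array and 1 HYP left ventricle array. The other probe alone had CON, HYP and CHF right ventricle means of -0.65, -1.05 and -1.15, against -0.74, -0.84 and -1.15 with both averaged. Camk2b ran from -0.81 to -0.07 in CON and from -0.12 to 0.18 in HYP, overlapping only at CON 18, HYP 08 and HYP 04. It was 0.48 ± 0.24 higher in HYP than in CON (limma adjusted p = 0.9997) and -0.36 ± 0.24 in CHF against HYP (adjusted p = 0.940). Camk2g differed by -0.32 ± 0.27 and Camk4 by 0.19 ± 0.30 between CHF and CON. Camk1 had 2 or 3 values a group: -0.18, 1.12 and 1.32 in CON, -1.22 and -0.78 in HYP, and -0.87 and 1.38 in CHF. The HYP difference of -1.75 ± 0.76 rests on those 5 values (limma adjusted p = 0.9997). Camkk1, a kinase that activates other calmodulin kinases, and Camk2n1, an inhibitor of CaMKII, differed by -0.16 and -0.25 between CHF and CON.

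Camk2a was measured by 2 probes that disagreed. One had means of 0.82, 0.84 and 0.66 in the CON, HYP and CHF right ventricles and of -0.57, -0.15 and -1.503 in the left. The other stood at -1.23, -1.41 and -1.26 in the right ventricle and at 0.15, -0.89 and -0.31 in the left. One probe was thus on average higher in the right than in the left ventricle and the other lower, in each group, while neither separated the right ventricle groups. The mean of both, 0.01 ± 0.36 for CHF against CON, hides this, and the values of Camk2a depend on the probe.

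The PI3-kinase, Akt and S6 kinase genes also stayed within their spread. Pik3r3, a regulatory subunit, ran from -0.08 through 0.65 to 1.33 in CON, from -0.75 through 0.20 to 1.01 in HYP and from -0.38 through 0.02 to 0.89 in CHF. It differed from CON by -0.56 ± 0.34 in CHF (limma adjusted p = 0.684; -1.07 turned) and by -0.64 ± 0.36 in HYP. Pik3r1, the main regulatory subunit, differed by 0.19 ± 0.44 in CHF, and Pik3c3, the class III kinase of vesicle traffic and autophagy, by -0.03 ± 0.74. Akt2, the Akt isoform tied to glucose uptake, had 3 CON and 3 CHF values from -1.79 to 2.68 and differed by 0.62 ± 1.11 (-1.17 turned). Rps6kb1 and Rps6ka2, a p70 and a p90 S6 kinase, differed by 0.03 and -0.03.

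Gsk3b, a kinase that restrains growth and that Akt inhibits, had the smallest p in CHF against HYP. Its CON scores ran from -0.19 through 0.45 to 0.92, its HYP scores from 0.10 through 0.79 to 1.01 and its CHF scores from -0.37 through 0.15 to 0.42. Of the HYP arrays, 5 of 6 lay above every CHF array, and HYP 05 at 0.10 lay inside the CHF range. Gsk3b was lower in CHF than in HYP by -0.64 ± 0.24 (limma adjusted p = 0.938; -0.90 turned), and differed from CON by -0.28 ± 0.24 in CHF and 0.36 ± 0.24 in HYP. The difference between CHF and HYP kept its direction with the sign turned, and none of the 3 differences passed.

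**Figure D4:**
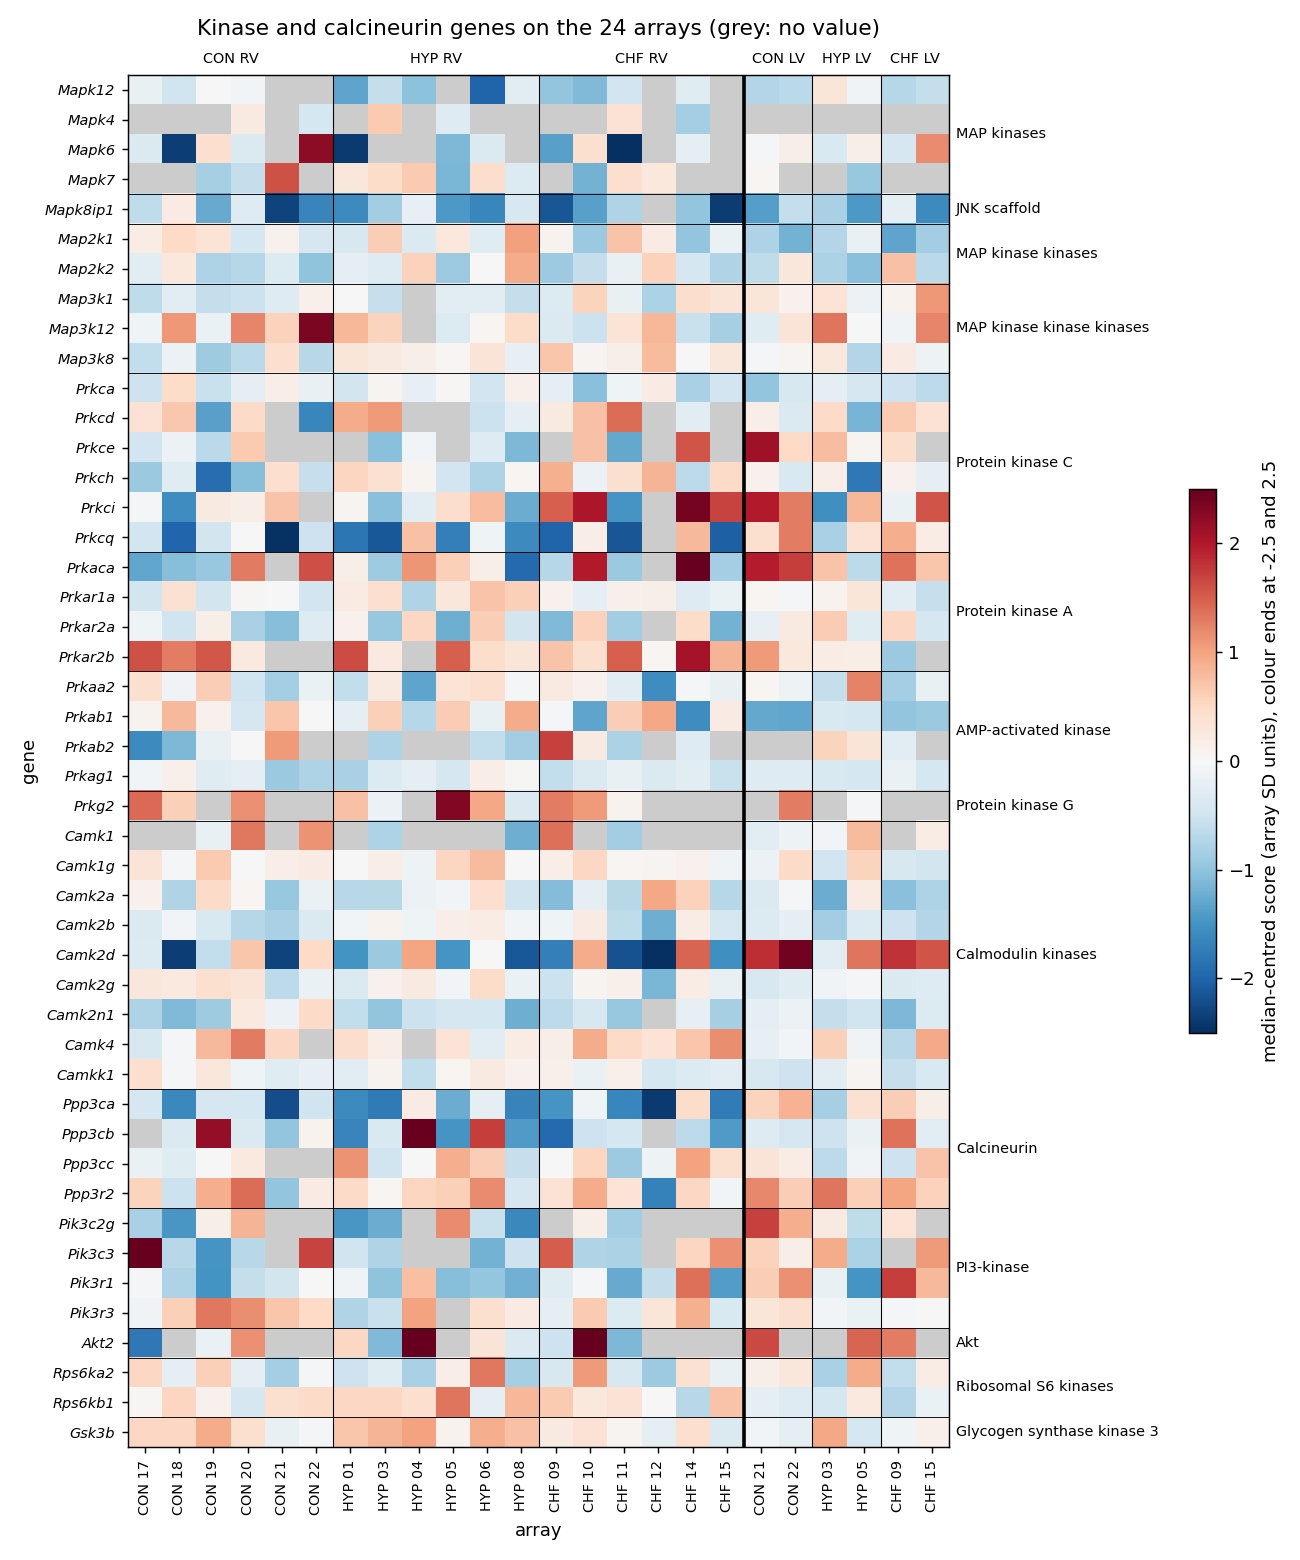
Centred scores of the 46 genes (rows, by role) on the 24 arrays (columns, by group), in array SDs on a colour scale that ends at -2.5 and 2.5; grey marks no value. Camk2d, Ppp3ca and Prkcq share their light and dark columns, with positive Camk2d on CHF arrays 10 and 14 and on all left ventricle arrays but HYP 03, and negative Camk2d on CHF arrays 09, 11, 12 and 15.

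Genes of the set passed in the comparison of the right with the left ventricle. Averaged over the conditions, 5 of 36 genes passed (13.9%, against 18.3% of all 2494 features): Camk2d, Ppp3ca and Prkcq were lower in the right ventricle, and Map2k1 and Prkab1 higher. By direction this was 3 lower (background 6.54%) and 2 higher (background 11.8%). At an unadjusted p below 0.05 there were 8 (22.2% against 36.1%), a share of calls below the background. The median difference was 0.04 array SDs against 0.03 over all features, 19 of 36 lay above 0, and the median absolute difference was 0.27 against 0.47. After the 5 arrays were turned, 0 members and 0 of all features passed by limma, so the calls hold for the deposited signs alone. In that turned fit 2 members had an unadjusted p below 0.05, with the share of all features not given here.

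Camk2d scores in the left ventricle were 1.84 and 2.42 in CON, -0.26 and 1.35 in HYP, and 1.57 and 1.81 in CHF. Its right ventricle values, listed above, reached 1.45 at most, so that only HYP 03 and HYP 05 of the left ventricle lay within the right ventricle range. The difference was -2.36 ± 0.62 (limma adjusted p = 0.0156; -0.60 turned, adjusted p = 0.615). Ppp3ca stood at 0.56 and 0.87 in CON, -0.83 and 0.38 in HYP, and 0.62 and 0.14 in CHF left ventricles, against right ventricle medians of -0.48, -1.41 and -1.55. It differed by -1.33 ± 0.39 (limma adjusted p = 0.0247; -0.69 turned). Prkcq stood at 0.41 and 1.27, -0.81 and 0.35, and 0.91 and 0.18 in the left ventricle groups in the same order, against right ventricle medians of -0.49, -1.65 and -2.004. The difference was -1.42 ± 0.49 (limma adjusted p = 0.0474; -0.69 turned).

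Map2k1, the MEK1 kinase above ERK, was negative on all 6 left ventricle arrays: -0.78 and -1.18 in CON, -0.74 and -0.18 in HYP, and -1.32 and -0.86 in CHF. In the right ventricle its group medians were 0.15 in CON, -0.02 in HYP and -0.03 in CHF, the 2 lowest values being those of CHF arrays 14 and 10. It was 0.85 ± 0.25 higher in the right ventricle (limma adjusted p = 0.0288), and -0.04 with the sign turned. Prkab1, the beta 1 subunit of the AMP-activated kinase, stood at -1.28 and -1.30, -0.37 and -0.43, and -0.99 and -0.92 in the left ventricle. In the right ventricle it ran from -1.55 to 0.97, again with CHF arrays 14 and 10 lowest. It was 0.95 ± 0.31 higher in the right ventricle (limma adjusted p = 0.0417; 0.08 turned). Pik3r1 at -0.95 ± 0.35, Rps6kb1 at 0.59 ± 0.22 and Map3k1 at -0.53 ± 0.21 came next and did not pass (limma adjusted p = 0.0647, 0.0671 and 0.0741).

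**Figure D5:**
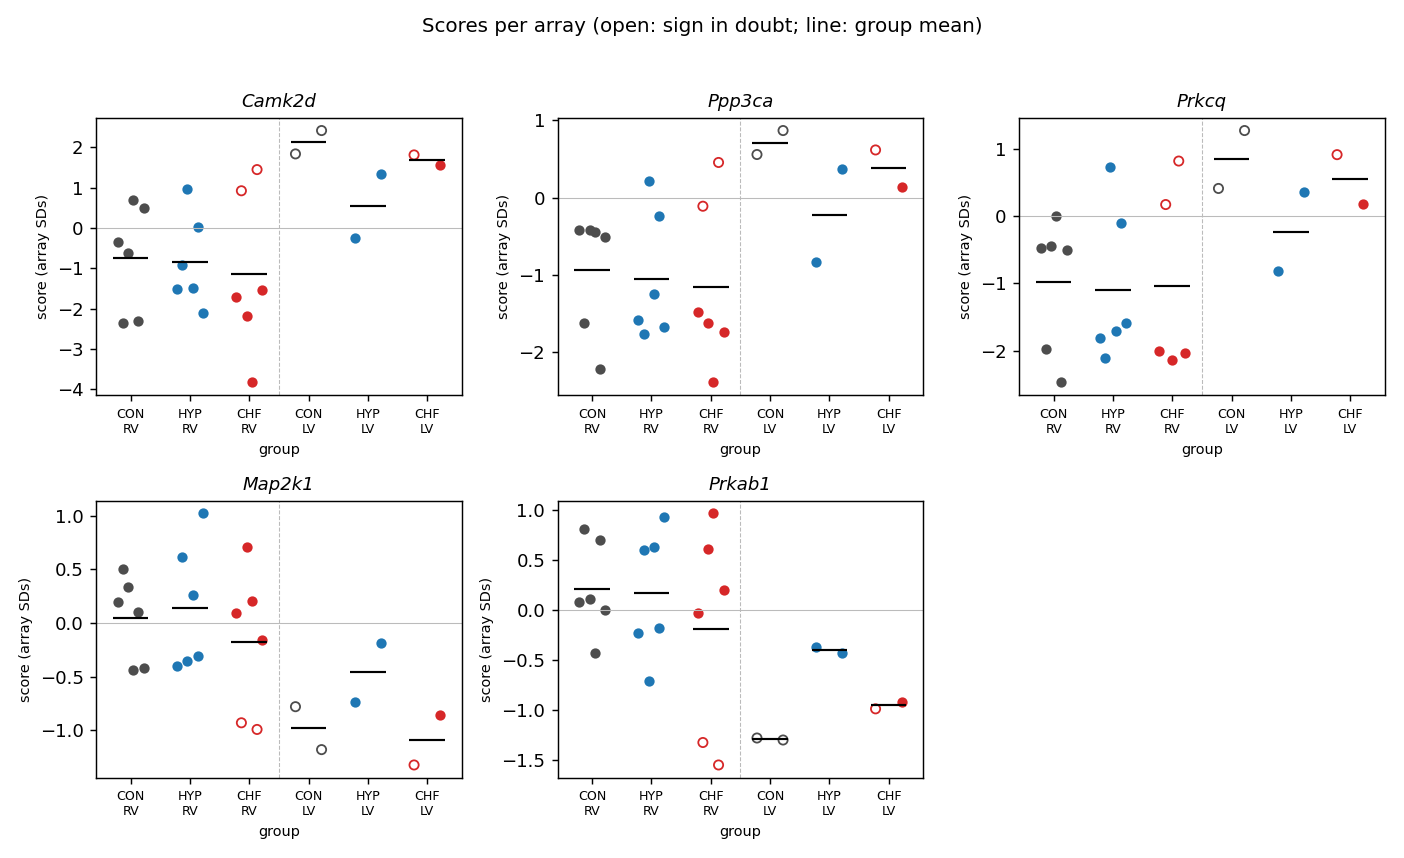
Centred score (vertical axis, array SDs) on every array by group (horizontal axis) for the 5 genes called between the ventricles; lines are group means and open circles arrays whose sign is in doubt. Among right ventricle arrays, the open circles of CHF 10 and 14 are the 2 lowest in Map2k1 and Prkab1 and among the 3 highest right ventricle values in the other genes, and 3 of the 6 left ventricle arrays are open.

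These calls rest on few arrays, and over the alternatives their number moved broadly with the share of all features called. That share was 0% with the sign turned (0 members), 18.3% in the main fit (5) and 43.3% with array weights (10). The single-array counts that follow lack this share, and leaving out a left ventricle array leaves 1 array in its group. Leaving out 1 array at a time, between 0 and 8 members passed: 0 without left ventricle array CHF 09 or CON 22, 1 without CON 21, 2 without HYP 03, and 8 without right ventricle array CHF 14. It was 3 without any one of HYP 05 or CHF 15 of the left ventricle and HYP 03, HYP 05, HYP 08, CHF 09, CHF 11, CHF 15, CON 18 or CON 21 of the right. Prkcq also missed the threshold with each array divided by its median absolute deviation (limma adjusted p = 0.0507). Camk2d passed in 22 of 24 such single-array fits, Ppp3ca and Map2k1 in 20, Prkab1 in 10 and Prkcq in 5. Without the 5 arrays of doubtful sign, or without the 3 left ventricle arrays deposited with 2 decimals, 0 passed, and 1.83% and 0.175% of all features did. In these fits Camk2d differed by -2.63 and -2.17 (limma adjusted p = 0.0822 and 0.256), Ppp3ca by -1.38 and -1.29, Prkcq by -1.55 and -1.41, Map2k1 by 0.84 and 0.87, and Prkab1 by 0.97 and 0.69. Both of these fits average over HYP and CHF, since no CON left ventricle array is left in them. Each keeps 1 CHF left ventricle array, whose single value passed the filter, so that 38 and 40 members were tested in place of 36. They were chosen after seeing the data.

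Camk2d, Ppp3ca and Prkcq also went up and down together between arrays of the same group. In the right ventricle all 3 were highest on arrays CHF 14, HYP 04 and CHF 10, in that order. CHF 14 and CHF 10 are the right ventricle arrays of doubtful sign. The scores by array given here are as deposited, and the joint movement was not tested with those arrays turned. On these arrays Camk2d stood at 1.45, 0.98 and 0.92, Ppp3ca at 0.46, 0.21 and -0.11, and Prkcq at 0.82, 0.73 and 0.17. Heart muscle cell markers were high on these arrays too. The mean score of 9 such genes measured on all arrays was 1.31, 0.9998 and 0.995 on those arrays and -2.38 on CHF 12, where Camk2d and Ppp3ca were lowest at -3.83 and -2.39 and Prkcq had no value. CON 22 went apart from this: its marker mean was 1.05, second to CHF 14, with Camk2d, Ppp3ca and Prkcq at 0.50, -0.50 and -0.51. That mean ran from -1.002 to 1.05 in CON, -0.88 to 0.9998 in HYP and -2.38 to 1.31 in CHF right ventricles, and from 0.66 to 1.32 over the left ventricle arrays. Between the ventricles 6.54% of all features passed as lower in the right and 11.8% as higher. Of 10 heart muscle markers tested, 9 lay below 0 in right against left, with a median of -0.95 array SDs (-0.22 turned). Of these, 3 passed as lower (Ckm, Myl3 and Ttn). Both red cell markers tested, Hbb and Alas2, were lower in the right ventricle, with a median of -3.90 (-1.10 turned) and Hbb from -8.30 to -0.13 there and from -7.40 to 5.59 in the left. Acta2 and Myl9, of 6 smooth muscle markers, and Lum, of 5 fibroblast markers, were higher, with 3 of the 6 and 4 of the 5 above 0. In CHF against CON of the right ventricle, 0 of 11 heart muscle markers passed by limma, against 0.907% of all features. At an unadjusted p below 0.05 it was 0 of 11, against 8.5%. Acta2, of 7 smooth muscle markers with 5 above 0 (median 0.34, 0.05 turned), and Acta1 and Pvalb, of 6 skeletal muscle markers with 4 above 0 (median 0.72, 0.58 turned), were higher. Acta1 missed the threshold with the sign turned (limma adjusted p = 0.0849). The part of these cell markers in the kinase and calcineurin differences was not tested, and in whole tissue fewer cells of a type and less RNA per cell cannot be told apart.

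For Camk2d, Ppp3ca and Prkcq, the stretch from 250 bases before to 50 after each gene's start is shown, on the gene's strand. The sequences are from RefSeq (GRCr8 assembly, chr2:217698301-217698600 for Camk2d, chr2:227839357-227839656 for Ppp3ca, both on the plus strand, and chr17:72288459-72288758 on the minus strand for Prkcq). Whether these stretches bear on the joint movement of the 3 genes was not tested. Capitals mark GGGCGG, the GC box bound by Sp1, or its reverse complement. GGAAA, the core that NFAT binds, was searched on both strands too and is not in these 3 windows.
Camk2d: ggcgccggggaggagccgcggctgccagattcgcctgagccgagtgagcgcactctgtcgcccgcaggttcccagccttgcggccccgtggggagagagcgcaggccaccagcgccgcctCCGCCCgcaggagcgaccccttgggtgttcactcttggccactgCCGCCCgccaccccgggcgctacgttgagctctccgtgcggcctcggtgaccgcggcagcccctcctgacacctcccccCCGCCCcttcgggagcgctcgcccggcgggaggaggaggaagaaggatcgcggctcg
Ppp3ca: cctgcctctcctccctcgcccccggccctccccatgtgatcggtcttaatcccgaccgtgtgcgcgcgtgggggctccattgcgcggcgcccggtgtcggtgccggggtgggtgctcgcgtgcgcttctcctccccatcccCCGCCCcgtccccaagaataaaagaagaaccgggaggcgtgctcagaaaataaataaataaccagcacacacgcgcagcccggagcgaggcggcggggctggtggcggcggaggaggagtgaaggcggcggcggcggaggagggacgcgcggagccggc
Prkcq: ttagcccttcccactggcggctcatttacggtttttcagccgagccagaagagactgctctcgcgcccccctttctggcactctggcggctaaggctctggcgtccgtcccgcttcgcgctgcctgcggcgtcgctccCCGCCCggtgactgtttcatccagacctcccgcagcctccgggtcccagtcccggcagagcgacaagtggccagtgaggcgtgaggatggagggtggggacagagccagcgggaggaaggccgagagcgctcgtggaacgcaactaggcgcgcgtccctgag
The 3 stretches hold 74.7%, 70% and 67% G and C and 3, 1 and 1 GC boxes, and none holds a TATA box (TATAAA). Those of Map2k1 and Prkab1, called in the other direction and not printed, hold 70% and 67.3% G and C. They have 2 and 0 GC boxes and 2 and 1 NFAT cores. Promoters were matched for 40 of the 46 tested genes. Their median G and C content was 66.8% against 51.7% over all 33469 promoters of the same length, and 67.5% held a GC box against 33.1%. The NFAT core was in 52.5% of the 40 and 62.7% of all, and the TATA box in 5% of the 40 and 14.2% of all promoters. A site for the cardiac GATA factors, searched as AGATAA, was found in 7.5% of the genes here against 11.6%. The E-box, which proteins of the helix-loop-helix family bind and which was searched as CANNTG, was found in 52.5% against 72.1%. Each motif was counted on both strands, with overlaps between motifs allowed. The full cyclic AMP response element TGACGTCA was in 0 of the 40 and in 1.83% of all promoters. These are descriptions of letters, and the list of all promoters includes genes that are not on the array.

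Within the left ventricle, which monocrotaline does not load directly, none of 36 genes passed in CHF against CON, HYP against CON or CHF against HYP (background 0% in each; unadjusted 0, 1 and 1 of 36, against 0.882%, 1.84% and 3.01%). Each group has 2 arrays, and the fit borrows the spread of all 6 groups for them. Pik3r1 had the smallest p: its scores were 0.61 and 1.14 in CON, -0.19 and -1.47 in HYP, and 1.74 and 0.81 in CHF. The HYP pair lay below the others, with differences of -1.71 ± 0.75 from CON and 2.10 ± 0.75 from HYP to CHF (limma adjusted p = 0.996 and 0.958). After turning the sign these became 0.04 and 0.37. Camk1g had the smallest p in CHF against CON, at -0.60 ± 0.38 (0.14 turned).

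Whether an effect differed between the ventricles was tested as an interaction, and 0 of 36 passed for CHF-CON or HYP-CON (background 0% in both; unadjusted 0 and 1, against 2.73% and 2.49%). The 1 gene was Mapk12, whose HYP-CON difference was -1.66 ± 0.57 lower in the right than in the left ventricle (limma adjusted p = 0.9997; -0.24 turned). In the left ventricle Mapk12 stood at -0.74 and -0.68 in CON and 0.30 and -0.09 in HYP, the opposite order to the right. For CHF-CON the smallest p were those of Map3k12 at -1.57 ± 0.82, Prkci at 2.24 ± 1.23 and Map3k8 at 0.75 ± 0.48. Prkci stood at -2.95 with the sign turned, and Map3k12 and Map3k8 at -1.32 and 0.89.

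Of 6 lists of genes around these kinases, 0 genes passed by limma in any right ventricle comparison, against 0.907%, 0.281% and 0% of all features. Among 9 of 21 calcineurin and calmodulin partners tested, the median CHF-CON difference was -0.06. It was 0.03 for 9 of 29 transcription factors and repressors, -0.24 for 13 of 24 small G proteins and Raf kinases, and -0.14 for 20 of 35 G proteins and phospholipases. It was -0.14 for 15 of 21 genes of PI3-kinase and mTOR signalling and 0.10 for 14 of 21 phosphatases, against -0.10 over all features. In the same order the lists held 1, 1, 2, 4, 2 and 0 genes below 0.05 before adjustment in that comparison, where 8.5% of all features were. The smallest p in CHF against CON were those of Pak2 (a kinase of Rac and Cdc42) at 3.08, Pdpk1 (the kinase that activates Akt) at 1.597 and Adcy8 (an adenylyl cyclase) at 2.54, with limma adjusted p = 0.201, 0.243 and 0.301. Turned, they stood at -0.55, -1.45 and 0.60.

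Between the ventricles, 15 partners passed and none did with the sign turned. By list this was 2 of 8 calcineurin partners, 1 of 9 transcription factors, 2 of 11 small G proteins, 5 of 15 G proteins and phospholipases, 3 of 13 PI3-kinase genes and 2 of 12 phosphatases, against 18.3% of all features. Higher in the right ventricle were Igf1, the growth factor above PI3-kinase (2.09 ± 0.39, limma adjusted p = 0.0025), Calm2, a calmodulin gene (0.84), Fkbp1b, which binds the ryanodine receptor and calcineurin inhibitors (0.57), and Rheb, the activator of mTOR (0.97). The others higher were Inppl1 (1.27), the phosphatase subunits Ppp1cc (1.19) and Ppp2cb (0.88), the phospholipases Plcb4 (1.51) and Plcd1 (0.87), and the G protein subunits Gnai3 (1.24) and Gnb1 (0.79). Lower were Gnas, the stimulatory G protein alpha subunit (-1.77), Ptpn11, a phosphatase that promotes ERK signalling (-1.61), Tsc2, which restrains mTOR (-1.26), and Stat3 (-1.19). With the sign turned, Igf1 kept 0.61 and Gnas -0.08, and Tsc2, Plcd1 and Rheb changed side, to 0.21, -0.27 and -0.07.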

How the data were processed

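The authors deposited 1 signed score per probe and array. Its scale, dyes, scanner, background correction, normalization and filters are not stated in any source used here; the scores were read as ratios against the pool standardised within each array. The deposited precision was 2 decimals on 3 left ventricle arrays and 3 on the others. No value shows how far a spot lay above background, and the number of arrays limits the precision.

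Genes were named through the platform annotation: of 4803 probes, 4278 had 1 symbol, 4 several and 521 none. Of the 67 member probes, 67 had an Entrez identifier in RefSeq (GRCr8) and 0 symbols changed. Probes of 1 symbol were averaged and unnamed probes kept as features, giving 4651. Array medians lay between -0.2 and 0.217, so arrays were median-centred, with the deposited scores as an alternative.

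Differences were tested in R 4.3.3 by the moderated linear models of limma 3.58.1. P-values were adjusted by Benjamini and Hochberg's method across every feature of a fit, and called below 0.05. Right ventricle fits used 18 arrays in 3 groups, and the others 24 arrays in 6 groups. Features with values on under 2 arrays of any group in the fit were left out, and missing values were not imputed. The test was tried on simulated data. For the turned sign, in each pair of arrays correlating below -0.3 the one with the lower median correlation with right ventricle arrays was turned.

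The genes named are those called in any comparison, the 8 with the smallest p in each right ventricle comparison and 3 in each other, a list of core members, and members whose probes differ in sign. Of the partner lists, called genes and the 3 with the smallest p in CHF against CON are named. Values of other members were added for completeness after they were seen. The members, lists and rules were chosen with earlier results of these data known. Alternatives were no centring, scaling by the median absolute deviation, the turned sign, 2 stricter filters on missing values, 1 probe per gene, array weights, the replicate number as a block, only the groups compared, and leaving out each array or the doubtful ones. Right and left ventricle arrays of a group share numbers, which the labels do not tie to an animal. Taken as pairs only if same-numbered arrays deviated together in every pair, they were not treated as pairs. That rule could not settle the pairing, since the 2 left ventricle arrays of a group deviate from its mean by equal and opposite amounts.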

Additional observations from a re-analysis of the deposited data

Results flagged for a closer look

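In 103 groups of right ventricle arrays of the named genes, 4 values lay far from the rest of their group, where chance gives about 5.15 at this threshold (1 in 20). Gsk3b was 0.097 on HYP array 05, while the next HYP value was 0.70. Prkar1a was -0.754 on HYP array 04, against 0.21 for the next. Prkaa2 was -1.562 on CHF array 12, against -0.28 for the next, and Prkci was -1.468 on CHF array 11, against 1.49.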

How the results depend on the processing

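The number of members called stayed at 0 in the 8 comparisons other than right against left ventricle under 235 alternatives. Under 1 other, array weights, 1 passed in CHF against CON (Prkch), with the share of all features in that fit not given here. Between the ventricles the count of 5 became 0 with the sign turned on 5 arrays, 10 with array weights, 8 with the replicate block, 0 without the 5 arrays of doubtful sign and 0 without the 3 arrays deposited with 2 decimals, and ran from 0 to 8 leaving out 1 array; the cause was not tested. Without centring 563 of all features passed, with array weights 1080 and with the replicate block 739, against 457. Without centring the median of all features moved from 0.03 to 0.20 and 60.1% in place of 52% lay above 0. Whether the replicate numbers pair the samples is not settled: over 1617 features, same-numbered right and left ventricle arrays (HYP 03, HYP 05, CHF 09, CHF 15, CON 21 and CON 22) had correlations of deviations of 0.285, 0.416, -0.297, 0.337, 0.0227 and -0.0455, and 3 of 6 matched best with their own number; the other 3 are those whose left array has a doubtful sign. The 2 left ventricle arrays of a group deviate from its mean by equal and opposite amounts. The 6 correlations are therefore not separate checks, and a low one cannot be assigned to 1 left array or its sign. The block (consensus correlation 0.231) added Map3k1, Pik3r1 and Rps6kb1 and lost no call.

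The genes followed under every alternative are those named by rule in each comparison. Of the members among them that changed side of 0, none was called before, except Map2k1 in right against left ventricle, and none after. In CHF against CON of the right ventricle with the sign turned these were Prkci (-0.45), Ppp3cc (-0.31), Mapk7 (0.57), Map2k1 (0.42), Camk2a (-0.11), Camk2b (-0.012), Camk4 (-0.35), Akt2 (-1.17), Pik3r1 (-0.26), Prkca (0.35), Prkce (-1.03), Prkaca (-1.34) and Prkar2a (-0.39), and of the other members Mapk12 (0.18), Mapk8ip1 (0.41), Prkab1 (0.56), Camkk1 (0.007), Mapk4 (0.71), Prkag1 (0.19) and Pik3c3 (0.06). Without CHF arrays 10 and 14 they were Ppp3cc (-0.11), Mapk7 (0.29), Map2k1 (0.17), Camk2a (-0.17), Camk2b (-0.14), Akt2 (-0.55), Pik3r1 (-0.33), Prkaca (-0.75) and Prkar2a (-0.60). With array weights they were Mapk7 (0.19), Map2k2 (-0.10), Camk2a (-0.47), Akt2 (-0.0908), Pik3r1 (-0.34), Prkce (-0.33), Prkaca (-0.48) and Prkar2a (-0.57), and with 1 probe per gene Camk2a (-0.0244). Over all members the turned sign moved 20 of 46 across 0 in CHF against CON and in CHF against HYP, 0 in HYP against CON, 17 to 26 of 36 in the left ventricle comparisons, 14 of 36 in right against left, and 21 and 17 of 36 in the interactions. With all arrays kept, the genes followed in other comparisons changed side only with the sign turned. These were CHF against HYP for Prkci (-0.33), Prkce (-0.56) and Camk4 (-0.0825); left ventricle CHF against CON for Camk1g (0.14) and Camk2n1 (0.20), and HYP against CON for Pik3r1 (0.0445), Prkci (1.28) and Mapk12 (-0.61). They were also right against left for Map2k1 (-0.0357) and Pik3r1 (0.0659), and the interactions for Prkci (-2.95) and Pik3r1 (-0.0828). Leaving out 1 array, CHF against CON crossed 0 for Ppp3ca (-0.53 to 0.0349), Ppp3r2 (-0.43 to 0.17), Mapk7 (-0.67 to 0.55), Map2k2 (-0.11 to 0.23), Camk2a (-0.22 to 0.19), Camk2d (-0.93 to 0.13), Camk4 (-0.0183 to 0.41), Akt2 (-0.55 to 1.35), Pik3r1 (-0.16 to 0.40), Prkce (-0.10 to 1.32), Prkcq (-0.52 to 0.22), Prkaca (-0.0481 to 0.92), Prkar2a (-0.23 to 0.21), Prkg2 (-0.47 to 0.12), Rps6kb1 (-0.10 to 0.21) and Prkaa2 (-0.34 to 0.0605).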
